A study of Mus musculus with 8 samples.

Results

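The replication-dependent histone genes encode the histones that package newly copied DNA, and 62 of them were measured by RNA sequencing in the testes of newborn mice. They were chosen by symbol, as every gene of the deposited expression table whose name begins with Hist1h, Hist2h, Hist3h or Hist4h. All 62 had a larger group mean of at least 1 RPKM (reads per kilobase of transcript, scaled to the mapped reads of a sample), among 15885 symbols past that filter and 24582 in all. They comprise 6 H1, 15 H2A, 18 H2B, 11 H3 and 12 H4 genes, and 1 of the H2B symbols, Hist3h2bb-ps, names a pseudogene. Where genes of a class had nearly equal values they were treated as 1, which left 57. By chromosome, 50 genes lie in the Hist1 cluster on chromosome 13, 8 in the Hist2 cluster on chromosome 3, 3 in the Hist3 cluster on chromosome 11, and Hist4h4 stands alone on chromosome 6.

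Testes labelled Dio3KO were set against wild-type testes, with 4 samples in each group, all from mice of the 129/SVJ background at postnatal day 5. Dio3 encodes the type 3 deiodinase, the enzyme that inactivates thyroid hormones, and the study asked which genes respond to thyroid hormone in the neonatal testis. The labels give neither litters nor the part of Dio3 that was altered, and nothing says whether a sample was 1 animal or a pool. The deposited table holds for each transcript the authors' mean of each group, the coefficient of variation (CV, the SD divided by the mean) and an adjusted p-value, so no value of a single sample is shown and the sequencing depth is unknown. How the deposited p-values were made is unknown, and p-values over these 8 samples can reflect at most the spread between them, which may be technical.

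Histones of the H2A, H2B, H3 and H4 classes form the core of the nucleosome, and linker histones of the H1 class bind the DNA between nucleosomes. Their replication-dependent genes are transcribed mainly in S phase, and most have no introns. Their mRNAs end in a conserved stem-loop in place of a poly(A) tail, which the stem-loop binding protein (Slbp) recognises. In the newborn testis both Sertoli cells, which nurse the germ cells, and spermatogonia divide, and male germ cells also use testis-specific histone genes.

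The labels were checked against the data first. Dio3 itself averaged 2.95 RPKM (CV 0.29) in Dio3KO-labelled testes and 0.52 RPKM (CV 0.20) in wild-type testes, higher (adjusted p = 0.0408 in the authors' deposited table). That direction goes against a loss of the transcript, and since the altered part of the gene is not given, the level does not check the genotype. The extraction text speaks of hypothalami where the tissue label says testis. Of 10 markers of hypothalamus and neurons, 8 were below 1 RPKM in both groups and the 10 summed to 4.5 RPKM in Dio3KO-labelled testes and 6.7 RPKM in wild-type testes. The 8 Sertoli markers summed to 1098 RPKM in Dio3KO-labelled testes and 1052 RPKM in wild-type testes.

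The stem-loop that gives these mRNAs their unusual end was present in nearly all members whose annotation reached far enough to show it. Among the 44 members with at least 50 annotated bases after the stop codon, 41 held it, 21 to 58 bases after the stop (median 31). The exceptions were Hist1h2bc, Hist1h2br and Hist2h2be, and their longest annotated ends held no match. The most common form was shared by 22 genes of the H1, H2A, H2B and H3 classes. The 11 H4 genes with a stem-loop all used other stems, seen in the Hist1h4a and Hist1h4b lines. The following 6 are shown because they span the classes and the forms found. Capitals mark the 16-base stem and loop, and the letters are those of the GENCODE M21 transcripts (build mm10), 5′ to 3′ on the transcript's strand.
Hist1h1d: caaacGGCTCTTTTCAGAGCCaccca
Hist1h2ac: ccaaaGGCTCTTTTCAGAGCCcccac
Hist1h2bk: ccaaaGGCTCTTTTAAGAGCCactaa
Hist1h3g: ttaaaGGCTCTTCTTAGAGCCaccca
Hist1h4a: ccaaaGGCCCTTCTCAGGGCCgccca
Hist1h4b: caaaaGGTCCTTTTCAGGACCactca
The capitals lie at chr13:23555787-23555802 on the plus strand in Hist1h1d, chr13:23683477-23683492 on the minus strand in Hist1h2ac and chr13:22036300-22036315 on the plus strand in Hist1h2bk. They lie at chr13:23535889-23535904 on the plus strand in Hist1h3g, chr13:23760800-23760815 on the minus strand in Hist1h4a and chr13:23757366-23757381 on the plus strand in Hist1h4b. All 30 stem-loops outside the H4 class kept 1 stem and differed only in the loop.

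Promoter letters also followed the classes. RefSeq promoters (GRCm38.p6, 250 bases before to 50 after the start) matched 55 of the 62 members, and 5 exact motifs were searched on both strands. CCAAT, the core of the NF-Y site, occurred in 47 of 55 histone promoters (85.5%) and in 37.4% of all 32851 promoters. It was in every matched H1, H2A, H2B and H3 promoter but in only 3 of 11 H4 promoters. TATAAA, the usual core promoter element, was in 32 of 55 (58.2%) and in 13.6% of all promoters. The octamer ATTTGCAT, known in H2B promoters as a site of Oct1, was in 7 of 14 H2A and 6 of 15 H2B promoters and in no other class, against 1.74% of all promoters. GGTCCG was in 10 of 11 H4 promoters, 1 H2B and 1 H3 promoter, against 8.25% of all. AAACACA, known from H1 promoters, was in 5 of 6 H1, 2 H2A and 2 H2B promoters, against 7.18% of all. Neighbouring H2A and H2B genes share promoter DNA, so their matches are not separate, and a match says only that the letters are present.

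Promoters of 5 members are printed, 1 from each class but H2A and a second H2B gene, because the results below turn on their genes: the H1 gene with the lowest ratio, the testis H2B gene beside another H2B gene of its cluster, the most abundant H3 gene and the H4 gene with the ratio nearest 0. Each run is the 250 bases before the RefSeq start, 5′ to 3′ on the gene's strand, with the motifs above in capitals on either strand.
Hist1h1b: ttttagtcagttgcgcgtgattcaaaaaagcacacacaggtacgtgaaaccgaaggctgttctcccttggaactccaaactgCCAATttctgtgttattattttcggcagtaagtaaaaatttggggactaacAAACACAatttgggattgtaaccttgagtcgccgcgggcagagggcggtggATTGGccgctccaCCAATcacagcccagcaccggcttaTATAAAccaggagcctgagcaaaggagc
Hist1h2bg: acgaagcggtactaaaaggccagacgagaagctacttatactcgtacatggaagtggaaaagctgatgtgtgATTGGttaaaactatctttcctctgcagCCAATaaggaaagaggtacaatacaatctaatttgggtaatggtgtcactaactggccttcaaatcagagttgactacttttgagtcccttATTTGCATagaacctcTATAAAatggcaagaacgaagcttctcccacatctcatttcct
Hist1h2ba: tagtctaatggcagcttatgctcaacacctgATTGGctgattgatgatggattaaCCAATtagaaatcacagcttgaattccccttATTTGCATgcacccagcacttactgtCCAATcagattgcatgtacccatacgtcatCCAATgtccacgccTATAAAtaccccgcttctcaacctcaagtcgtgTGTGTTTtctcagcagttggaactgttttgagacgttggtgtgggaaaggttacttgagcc
Hist1h3b: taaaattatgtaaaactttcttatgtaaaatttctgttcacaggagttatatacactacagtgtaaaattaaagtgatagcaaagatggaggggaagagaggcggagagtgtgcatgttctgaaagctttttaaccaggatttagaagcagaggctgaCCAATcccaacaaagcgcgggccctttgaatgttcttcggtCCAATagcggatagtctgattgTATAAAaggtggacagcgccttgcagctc
Hist4h4: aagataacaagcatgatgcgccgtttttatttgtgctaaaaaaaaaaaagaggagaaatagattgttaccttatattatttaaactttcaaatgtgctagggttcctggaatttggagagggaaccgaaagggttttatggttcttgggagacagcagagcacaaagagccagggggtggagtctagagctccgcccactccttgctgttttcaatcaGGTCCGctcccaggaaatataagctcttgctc
They cover chr13:21780626-21780875 on the minus strand for Hist1h1b, chr13:23571150-23571399 on the plus strand for Hist1h2bg and chr13:23934157-23934406 on the minus strand for Hist1h2ba. They cover chr13:23752095-23752344 on the plus strand for Hist1h3b and chr6:136804432-136804681 on the minus strand for Hist4h4. The Hist1h1b run holds CCAAT 3 times, AAACACA once and TATAAA at position −28 from the start. Hist1h2bg has its octamer at position −59 from the start, and the testis gene Hist1h2ba has one at −164. The annotated start of Hist1h2ba is also the start of its coding part, so these positions are not measured from like points. Hist4h4 holds GGTCCG and neither CCAAT nor TATAAA.

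Histone mRNA was lower in Dio3KO-labelled testes across all 5 classes. On the deposited scale all 62 genes had a lower mean there than in wild type. With both groups scaled to the summed RPKM of all symbols, 61 were lower, all but Hist2h2be. This scaling shifts each log2 ratio up by 0.15, and its sum holds the histones themselves. Scaled to the sum without the histone genes, whose log2 ratio was −0.0644, all 62 stayed lower. Counting nearly equal genes as 1, 51 of 57 fell by the authors' deposited table, at an adjusted p under 0.05, none rose and 6 missed the threshold. Counted singly, 56 of the 62 genes fell by the authors' adjusted p, which called 15.8% of all tested genes lower and 13.8% higher. The median log2 ratio of Dio3KO-labelled over wild-type means, with 0.5 RPKM added to each, was −0.92 over the 57, beside −0.05 over all genes tested. A moderated limma test rebuilt from the deposited means and CVs, with Benjamini-Hochberg adjustment, called 52 of 57 lower and none higher, where it called 23.1% of all genes lower and 18.5% higher. At an unadjusted limma p below 0.05, 57 of the 62 were lower and none higher, against 28.9% of all genes lower and 21.8% higher. In 57 of the 62 genes, the Dio3KO-labelled mean plus 1 SD lay below the wild-type mean minus 1 SD, as it did in 24.1% of all genes tested. These are whole testes, so fewer dividing cells and less histone mRNA per cell cannot be told apart.

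**Figure D1:**
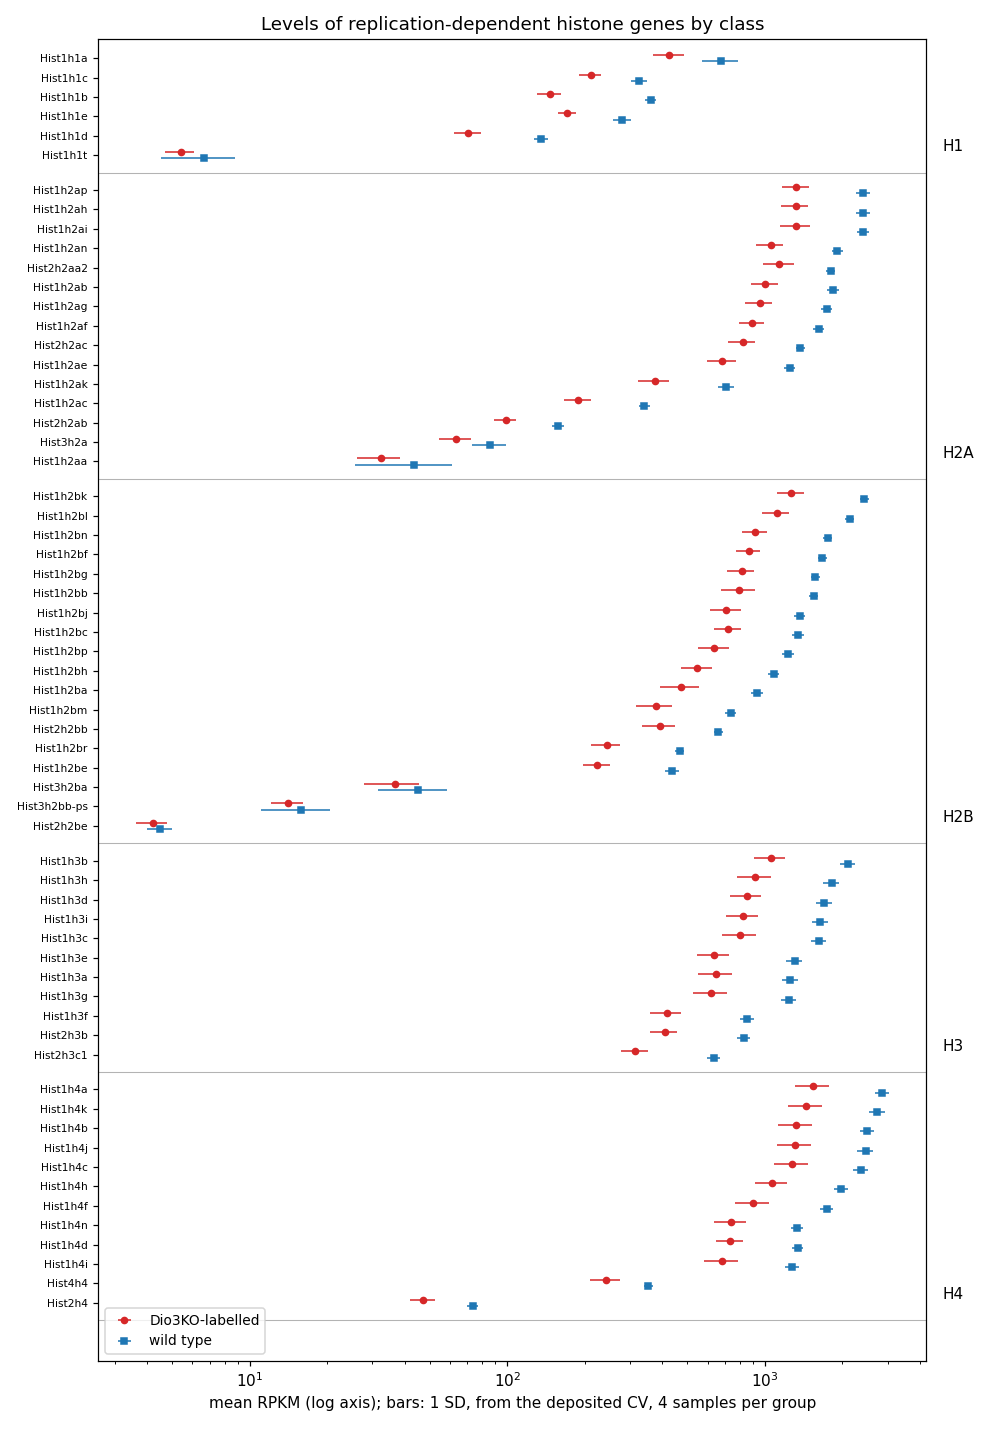
Deposited group means of the 62 histone genes, on a log10 RPKM axis, by class, with Dio3KO-labelled and wild-type values drawn side by side and bars of 1 SD from the deposited CVs. On this deposited scale every Dio3KO-labelled mean lies below its wild-type mean, and the pairs come closest for the genes of low level such as Hist2h2be at 4.21 RPKM in Dio3KO-labelled and 4.49 RPKM in wild-type testes.

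The members had high deposited values, and their sum showed the same difference. Together they summed to 41248.5 RPKM in Dio3KO-labelled testes and 77342.7 RPKM in wild-type testes, so that the Dio3KO-labelled sum was 53.3% of the wild-type sum. They made up 7.34% of the summed RPKM of all symbols in Dio3KO-labelled testes and 12.4% in wild-type testes. The sum over all symbols was 562142.8 RPKM in Dio3KO-labelled testes and 622010.2 RPKM in wild-type testes, and the histones held 60.3% of that difference. Without them the remaining Dio3KO-labelled sum was 95.6% of the wild-type one. By class, the Dio3KO-labelled sum was 57.7% of wild type for H1, 56.1% for H2A, 52.2% for H2B, 49.9% for H3 and 53.9% for H4. Near copies were added singly here, and how reads with several matches were counted is unknown. If such reads were counted at each copy, these sums, shares and differences hold them more than once. Whether polyadenylated RNA was selected is unknown too. If it was, mRNAs without a poly(A) tail would be undercounted. The levels, shares and spread of these genes would then depend on that step.

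**Figure D2:**
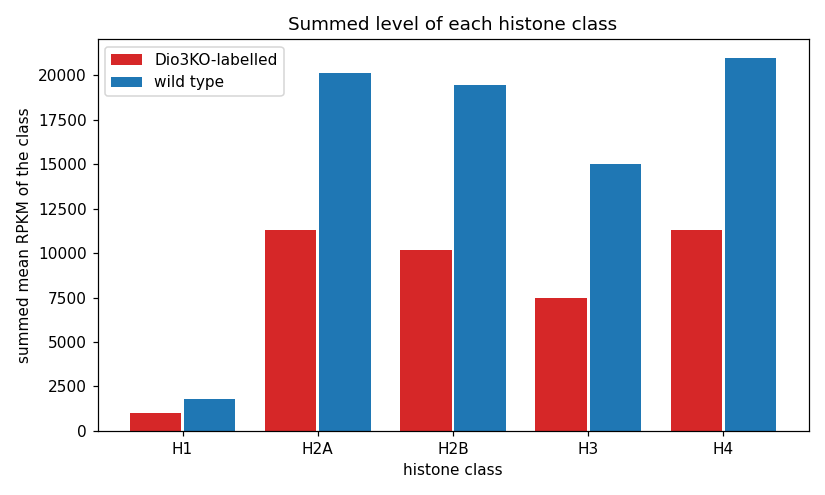
Summed deposited mean RPKM of each histone class, on a linear axis from 0, with the Dio3KO-labelled bar left of the wild-type bar. H1 reaches 1030.7 RPKM in Dio3KO-labelled and 1785 RPKM in wild-type testes, far below the 4 core classes, whose Dio3KO-labelled bars lie between 7482 and 11313 RPKM and wild-type bars between 14996 and 21001 RPKM.

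How far single genes can be told apart depends on their sequence. The coding parts of the members of a class are close copies, with a median identity of 96.4% in H2A, 94.8% in H2B, 97.6% in H3 and 93.9% in H4 among pairs of equal length, and none identical. For each member, the share of 50-base windows of its coding part that no transcript of another gene holds was counted in GENCODE M21. The median was 89.1% in H1, 18.0% in H2A, 27.8% in H2B, 18.2% in H3 and 31.0% in H4. It was 0% in 7 members, among them Hist1h2ap, Hist2h3c1 and Hist1h4n. No member shared a 50-base window of its coding part with a member of another class. Untranslated parts were not compared in this way, so reads shared between classes are not excluded. The annotated spans of Hist1h2be and Hist1h1e, for example, overlap on the minus strand. The read length and the treatment of reads with several matches are unknown here, and values of single H2A, H2B, H3 and H4 genes with few unique windows are uncertain to that degree.

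H1 was the class with the widest spread between genes and the one whose genes are most distinct in sequence. Of its 6 genes 5 fell, with a median log2 ratio of −0.69 over the 6. Hist1h1b, a linker histone wholly unique in sequence, averaged 146 RPKM (CV 0.11) in Dio3KO-labelled testes and 361 RPKM (CV 0.05) in wild-type testes. Its log2 ratio of −1.30 was the lowest of all 62 members, and its adjusted p in the authors' deposited table was 0.0022. It lies on chromosome 13 at chr13:21779883-21780625 on the minus strand (mm10) and has a single exon. Hist1h1d averaged 70.6 RPKM (CV 0.12) in Dio3KO-labelled testes against 135 RPKM (CV 0.06) in wild-type testes, a log2 ratio of −0.93 (adjusted p = 0.0034 in the authors' deposited table).

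The other H1 genes changed less. Hist1h1a, a linker histone enriched in testis, was the most abundant of the class at 426.5 RPKM (CV 0.14) in Dio3KO-labelled testes and 678 RPKM (CV 0.16) in wild-type testes. It fell by 0.67 on the log2 scale (adjusted p = 0.0462 in the authors' deposited table), close to the threshold. Hist1h1c, found in most somatic cells, averaged 211 RPKM (CV 0.10) in Dio3KO-labelled testes and 325 RPKM (CV 0.07) in wild-type testes, a log2 ratio of −0.62 (adjusted p = 0.0067 in the authors' deposited table). Hist1h1e, another linker histone, had a log2 ratio of −0.71. Hist1h1t, the linker histone of meiotic spermatocytes, averaged only 5.40 RPKM (CV 0.13) in Dio3KO-labelled testes and 6.66 RPKM (CV 0.32) in wild-type testes, and did not pass (adjusted p = 0.394 in the authors' deposited table).

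H2A genes fell together within a narrow range. Of 15 genes 13 fell, the median log2 ratio was −0.86 over the 15, and the 10 that fell in the Hist1 cluster lay between −0.92 and −0.86. The most abundant were Hist1h2ap, Hist1h2ai and Hist1h2ah, whose nearly equal values count as 1 gene. Hist1h2ap averaged 1326 RPKM (CV 0.12) in Dio3KO-labelled testes and 2414 RPKM (CV 0.06) in wild-type testes, a log2 ratio of −0.86 (adjusted p = 0.0038 in the authors' deposited table). Hist1h2ai averaged 1320.5 RPKM (CV 0.13) in Dio3KO-labelled testes and 2409.6 RPKM (CV 0.05) in wild-type testes, and Hist1h2ah averaged 1319 RPKM (CV 0.12) in Dio3KO-labelled testes and 2411 RPKM (CV 0.06) in wild-type testes. Both had a log2 ratio of −0.87 (adjusted p = 0.0039 in the authors' deposited table). None of the windows of Hist1h2ap, and under 10% of those of the other two, were unique.

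The smallest adjusted p of the class, 0.0034 in the authors' deposited table, belonged to Hist1h2af, with 893 RPKM (CV 0.11) in Dio3KO-labelled testes and 1616 RPKM (CV 0.05) in wild-type testes and a log2 ratio of −0.86. Hist1h2an followed with 1055 RPKM (CV 0.12) in Dio3KO-labelled testes and 1914 RPKM (CV 0.05) in wild-type testes, a log2 ratio of −0.86 (adjusted p = 0.0036 in the authors' deposited table). Hist1h2ak had the lowest ratio at −0.92, with 373 RPKM (CV 0.14) in Dio3KO-labelled testes and 707 RPKM (CV 0.07) in wild-type testes (adjusted p = 0.0041 in the authors' deposited table). The 3 Hist2 genes of the class also fell but had ratios nearer 0, from −0.74 for Hist2h2ac to −0.66 for Hist2h2aa2.

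Both H2A genes that did not pass were of low level. Hist1h2aa, the testis H2A gene of male germ cells, averaged 32.3 RPKM (CV 0.19) in Dio3KO-labelled testes and 43.4 RPKM (CV 0.41) in wild-type testes, a log2 ratio of −0.42 (adjusted p = 0.381 in the authors' deposited table). Hist3h2a, the H2A gene on chromosome 11, averaged 63.4 RPKM (CV 0.14) in Dio3KO-labelled testes and 85.9 RPKM (CV 0.15) in wild-type testes (adjusted p = 0.0828 in the authors' deposited table). It was the single member whose call differed in the limma test with Benjamini-Hochberg adjustment, which gave an adjusted p of 0.0147.

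H2B held both tightly grouped genes and the member nearest to no change, Hist2h2be. Of 18 genes 15 fell, and the median log2 ratio over the 18 was −0.95. All 14 H2B genes of the Hist1 cluster fell, with log2 ratios between −0.98 and −0.90. Hist1h2bk was the most abundant, at 1264 RPKM (CV 0.12) in Dio3KO-labelled testes and 2433 RPKM (CV 0.04) in wild-type testes, a log2 ratio of −0.94 (adjusted p = 0.0037 in the authors' deposited table). Hist1h2bl averaged 1113 RPKM (CV 0.12) in Dio3KO-labelled testes and 2134 RPKM (CV 0.04) in wild-type testes, at a log2 ratio of −0.94 (adjusted p = 0.0034 in the authors' deposited table). Hist1h2bn averaged 915 RPKM (CV 0.11) in Dio3KO-labelled testes and 1752 RPKM (CV 0.04) in wild-type testes, at a log2 ratio of −0.94 (adjusted p = 0.0031 in the authors' deposited table).

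The smallest adjusted p of the class, 0.003 in the authors' deposited table, was shared by 2 H2B genes. Hist1h2bf averaged 865 RPKM (CV 0.11) in Dio3KO-labelled testes and 1670.2 RPKM (CV 0.04) in wild-type testes, a log2 ratio of −0.95. Hist1h2be averaged 223 RPKM (CV 0.12) in Dio3KO-labelled testes and 437 RPKM (CV 0.06) in wild-type testes, a log2 ratio of −0.97. Hist1h2bg, whose promoter is printed beside that of Hist1h2ba, averaged 814 RPKM (CV 0.12) in Dio3KO-labelled testes and 1569 RPKM (CV 0.04) in wild-type testes, a log2 ratio of −0.95 with an adjusted p of 0.0036 by the authors' deposited table. The lowest ratio of the class, −0.98, was that of Hist1h2bh, with 547 RPKM (CV 0.14) in Dio3KO-labelled testes and 1083 RPKM (CV 0.05) in wild-type testes (adjusted p = 0.0039 in the authors' deposited table).

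Hist1h2ba, the testis H2B gene that replaces ordinary H2B in male germ cells, also fell. It averaged 473 RPKM (CV 0.17) in Dio3KO-labelled testes and 934 RPKM (CV 0.05) in wild-type testes, a log2 ratio of −0.98 (adjusted p = 0.0051 in the authors' deposited table). Of its windows 61.8% were unique. Of the other testis members on the same chromosome, Hist1h1a fell and Hist1h1t and Hist1h2aa did not pass, and whether their ratios differ from that of Hist1h2ba was not tested. The 8 germ cell markers (Ddx4, Dazl, Tex101, Mael, Sohlh1, Zbtb16, Dnd1 and Kit) summed to 245 RPKM in Dio3KO-labelled testes and 269 RPKM in wild-type testes. In the authors' deposited table none of the 8 passed in either direction, where 15.8% of all genes were called lower and 13.8% higher. The limma test with Benjamini-Hochberg adjustment called 2 lower (Ddx4 and Tex101) and 1 higher (Kit). Of all genes it called 23.1% lower and 18.5% higher. The same 3 markers had an unadjusted p below 0.05 there, as did 28.9% of all genes as lower and 21.8% as higher. The 8 had CVs of 0.01 to 0.18 in Dio3KO-labelled testes and 0.10 to 0.34 in wild-type testes.

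The 3 H2B genes that did not pass had ratios nearer 0. Hist2h2be averaged 4.21 RPKM (CV 0.14) in Dio3KO-labelled testes and 4.49 RPKM (CV 0.11) in wild-type testes (adjusted p = 0.509 in the authors' deposited table). Its log2 ratio of −0.08 turns to 0.06 when both groups are scaled to the summed RPKM of all symbols. It stays negative when the histones are left out of that sum. Hist2h2be held no stem-loop match in 2192 annotated bases after the stop, so only its symbol places it among the replication-dependent genes here. Hist3h2ba averaged 36.7 RPKM (CV 0.24) in Dio3KO-labelled testes and 44.9 RPKM (CV 0.30) in wild-type testes, and did not pass (adjusted p = 0.42 in the authors' deposited table). The pseudogene Hist3h2bb-ps averaged 14.1 RPKM (CV 0.14) in Dio3KO-labelled testes and 15.8 RPKM (CV 0.30) in wild-type testes (adjusted p = 0.54 in the authors' deposited table). Hist2h2bb, from the same cluster as Hist2h2be, fell at a log2 ratio of −0.76.

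H3 was the most uniform class. All 11 genes fell, with log2 ratios from −1.04 to −0.95 and a median of −1.0, and none had 50% or more of its windows unique. Hist1h3b was the most abundant, at 1053 RPKM (CV 0.14) in Dio3KO-labelled testes and 2098 RPKM (CV 0.07) in wild-type testes, a log2 ratio of −0.99 (adjusted p = 0.0037 in the authors' deposited table). Hist1h3h averaged 916 RPKM (CV 0.15) in Dio3KO-labelled testes and 1816 RPKM (CV 0.07) in wild-type testes, with a log2 ratio of −0.99 (adjusted p = 0.0039 in the authors' deposited table). Hist1h3d averaged 849 RPKM (CV 0.14) in Dio3KO-labelled testes and 1703 RPKM (CV 0.07) in wild-type testes, with a log2 ratio of −1.0 (adjusted p = 0.0037 in the authors' deposited table).

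The lowest ratio and the smallest adjusted p of the H3 class met in Hist1h3f. It averaged 416 RPKM (CV 0.14) in Dio3KO-labelled testes and 856 RPKM (CV 0.06) in wild-type testes, a log2 ratio of −1.04 (adjusted p = 0.0032 in the authors' deposited table). The 2 H3 genes on chromosome 3 also had an adjusted p of 0.0032 by the authors' deposited table. Hist2h3b averaged 408 RPKM (CV 0.12) in Dio3KO-labelled testes and 829 RPKM (CV 0.06) in wild-type testes, a log2 ratio of −1.02. Hist2h3c1 averaged 313 RPKM (CV 0.12) in Dio3KO-labelled testes and 635 RPKM (CV 0.06) in wild-type testes, the same ratio. Hist1h3a had the ratio of the class nearest 0, −0.95, with 647 RPKM (CV 0.15) in Dio3KO-labelled testes and 1253 RPKM (CV 0.07) in wild-type testes.

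H4 held the most abundant members of all. All 12 H4 genes fell, with a median log2 ratio of −0.89. Hist1h4a averaged 1542 RPKM (CV 0.15) in Dio3KO-labelled testes and 2857 RPKM (CV 0.06) in wild-type testes, a log2 ratio of −0.89 (adjusted p = 0.0049 in the authors' deposited table). Hist1h4k averaged 1451 RPKM (CV 0.15) in Dio3KO-labelled testes and 2726 RPKM (CV 0.07) in wild-type testes, a log2 ratio of −0.91 (adjusted p = 0.0045 in the authors' deposited table). Hist1h4b, counted as 1 with Hist1h4j, averaged 1324 RPKM (CV 0.15) in Dio3KO-labelled testes and 2497 RPKM (CV 0.06) in wild-type testes, a log2 ratio of −0.92 (adjusted p = 0.0047 in the authors' deposited table). The lowest ratio, −0.95, was that of Hist1h4f, with 900.3 RPKM (CV 0.15) in Dio3KO-labelled testes and 1741.5 RPKM (CV 0.06) in wild-type testes (adjusted p = 0.0043 in the authors' deposited table).

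The smallest adjusted p-values of the class were those of Hist1h4d and Hist1h4h. Hist1h4d, nearly equal to Hist1h4n, averaged 732 RPKM (CV 0.12) in Dio3KO-labelled testes and 1341 RPKM (CV 0.05) in wild-type testes, a log2 ratio of −0.87 (adjusted p = 0.0038 in the authors' deposited table). Hist1h4h averaged 1066 RPKM (CV 0.14) in Dio3KO-labelled testes and 1981 RPKM (CV 0.06) in wild-type testes, a log2 ratio of −0.89 (adjusted p = 0.0041 in the authors' deposited table). The 2 H4 genes outside chromosome 13 had the ratios nearest 0 and are almost wholly unique in sequence. Hist4h4, at chr6:136801553-136804415 on the minus strand (mm10), averaged 242 RPKM (CV 0.13) in Dio3KO-labelled testes and 353 RPKM (CV 0.04) in wild-type testes, a log2 ratio of −0.54 (adjusted p = 0.0179 in the authors' deposited table). Hist2h4 averaged 47.3 RPKM (CV 0.11) in Dio3KO-labelled testes and 73.7 RPKM (CV 0.05) in wild-type testes, a log2 ratio of −0.63 (adjusted p = 0.0067 in the authors' deposited table).

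**Figure D3:**
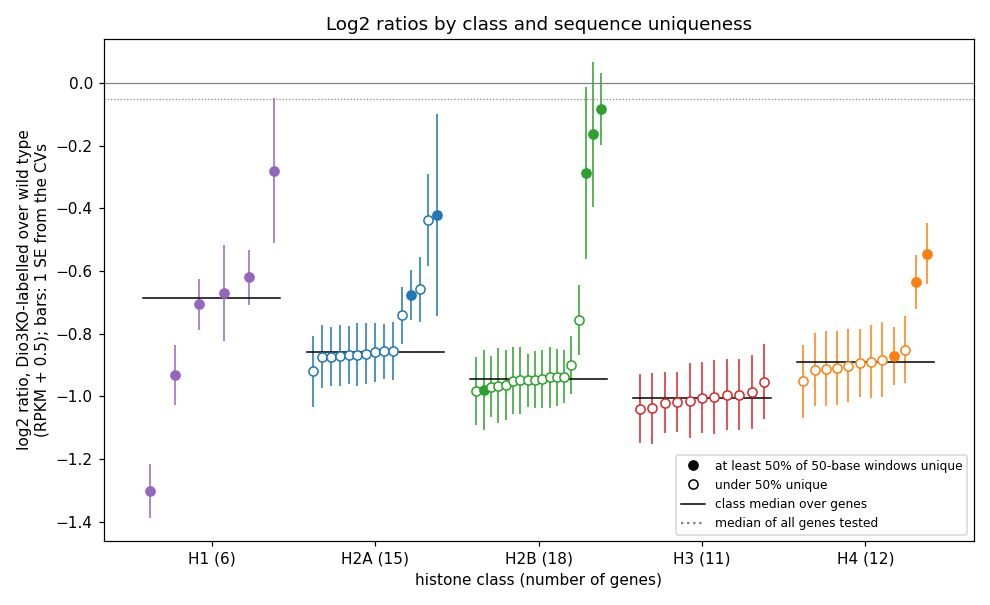
Log2 ratio of the Dio3KO-labelled over the wild-type mean for each histone gene, with 0.5 RPKM added to each mean, grouped by class. The H3 genes lie between −1.04 and −0.95, while H1 runs from −1.30 for Hist1h1b to −0.28 for Hist1h1t and H2B reaches −0.08 for Hist2h2be.

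Set side by side by cluster, the ratios also lay at different levels. The median log2 ratio was −0.93 over the 50 genes of Hist1, −0.71 over the 8 of Hist2, −0.29 over the 3 of Hist3, and −0.54 for Hist4h4 alone. By the authors' deposited table, 48 of the 50 Hist1 genes and 7 of the 8 Hist2 genes fell, and none of the 3 Hist3 genes passed, where limma with Benjamini-Hochberg adjustment called 1, Hist3h2a, lower. Within H2A the median was −0.87 for Hist1, −0.68 for Hist2 and −0.44 for the single Hist3 gene. Within H3 the clusters lay together, at −1.0 for Hist1 and −1.02 for Hist2. No difference between clusters was tested, since genes of a cluster share samples and reads.

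Level and uniqueness moved with these ratios. All 55 members with an average of the 2 group means of at least 100 RPKM fell, with a median log2 ratio of −0.92, and 1 of the 7 below that level, Hist2h4, did. Of the 15 members with at least 50% of windows unique 10 fell and 5 did not pass, with ratios from −1.30 to −0.08 and a median of −0.63. Of the 47 others 46 fell, with a median of −0.94 and a range from −1.04 to −0.44. The part that shared reads have in the narrow range of the near copies was not tested. Members with at least 50% of windows unique fell in H1, H2A, H2B and H4, namely Hist1h1a to Hist1h1e, Hist2h2ab, Hist1h2ba, Hist1h4d, Hist2h4 and Hist4h4. Among these, only 57.8% of the windows of Hist1h4d and 61.8% of those of Hist1h2ba were unique. The share was 73.6% for Hist1h1d, 74.6% for Hist1h1e, 75.9% for Hist2h2ab, 78.1% for Hist1h1c and 93.9% for Hist2h4. Shared reads can enter the values of each of these genes. Hist1h4d also had nearly the values of Hist1h4n, none of whose windows were unique.

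**Figure D4:**
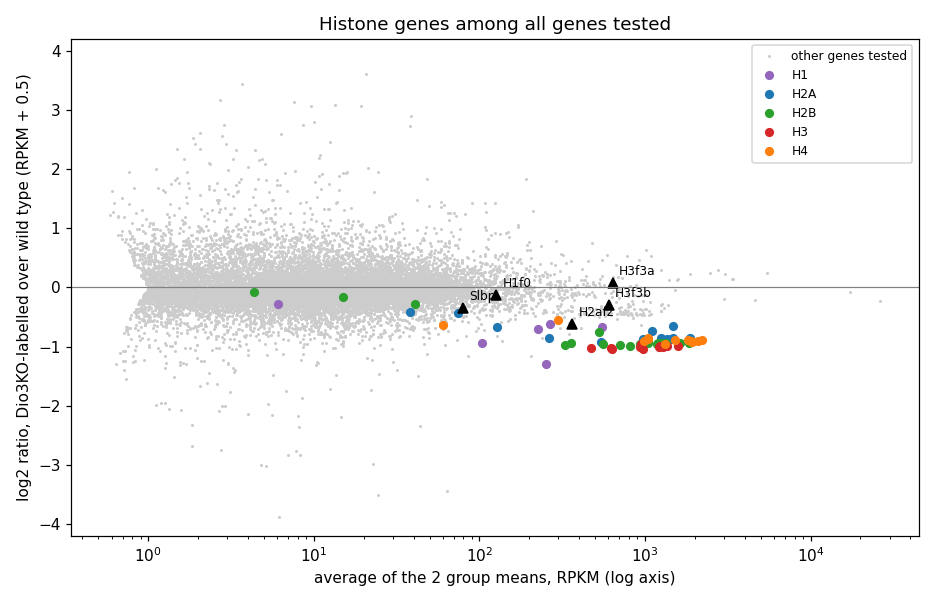
Log2 ratio of Dio3KO-labelled over wild-type means against the average of the 2 group means, on a log10 RPKM axis, 1 point for each histone gene, coloured by class. The 55 genes at 100 RPKM or more all lie at or below −0.54, and the 7 of lower level lie between −0.63 and −0.08.

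Divergent neighbours were also set side by side. Among the members 12 pairs had starts within 1000 bases on opposite strands, 11 of them an H2A and an H2B gene 173 to 306 bases apart. In 8 of these 11 pairs, all in the Hist1 cluster, the H2A log2 ratio was above that of its H2B partner by 0.02 to 0.09. In that cluster the H2A genes that fell lay between −0.92 and −0.86 and the H2B genes between −0.98 and −0.90. Most pairings of those genes would give a like difference, so it says nothing of neighbours as such. The other 3 pairs were wider apart in ratio. The H2A ratio minus the H2B ratio was 0.56 for Hist1h2aa and Hist1h2ba, −0.66 for Hist2h2ac and Hist2h2be, and −0.27 for Hist3h2a and Hist3h2bb-ps. Each of those 3 pairs holds at least 1 gene that did not pass. The pair of an H2B and an H3 gene, Hist1h2bh and Hist1h3f, had ratios of −0.98 and −1.04.

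The spread between samples differed between the groups for histone genes and was wider in Dio3KO-labelled testes. The median CV of the 62 members was 0.14 in Dio3KO-labelled testes and 0.06 in wild-type testes, and the CV was higher in Dio3KO-labelled testes for 55 of them. Over the 686 other genes with an average of at least 100 RPKM, the median CV was 0.05 in Dio3KO-labelled testes and 0.07 in wild-type testes, and it was higher in Dio3KO-labelled testes for 178. The 7 members of lower level behaved otherwise, with a higher CV in Dio3KO-labelled testes for 2 of 7. The members share samples, and with group means alone no sample could be left out.

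**Figure D5:**
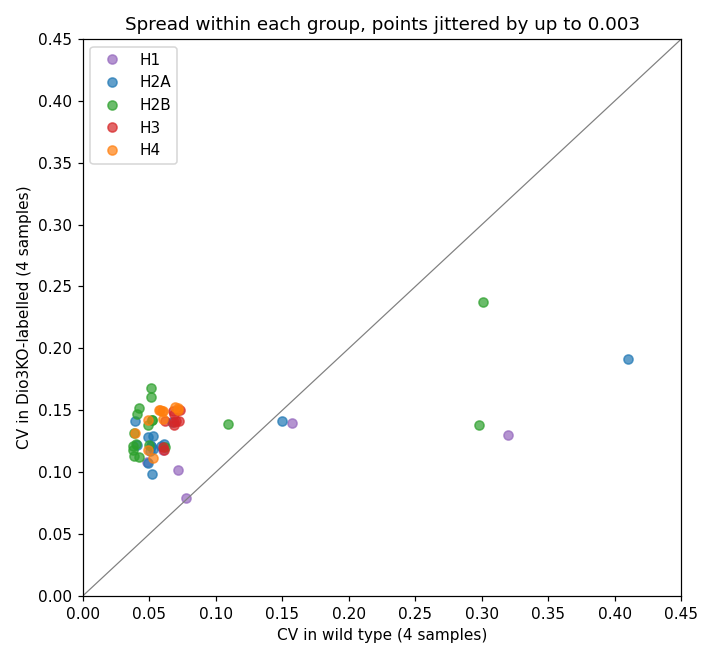
Deposited CV of each histone gene in Dio3KO-labelled testes against its CV in wild-type testes, both without units. For 55 of 62 genes the Dio3KO-labelled CV is the higher, with medians of 0.14 in Dio3KO-labelled and 0.06 in wild-type testes.

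Genes of histone variants, grouped here as replication-independent, changed less uniformly. Whether the mRNA of each is free of ties to S phase was not checked. H2afz, an H2A variant at promoters, averaged 286 RPKM (CV 0.08) in Dio3KO-labelled testes and 440.4 RPKM (CV 0.10) in wild-type testes, a log2 ratio of −0.62 (adjusted p = 0.0184 in the authors' deposited table). H3f3a and H3f3b encode the replacement histone H3.3. H3f3a averaged 656 RPKM (CV 0.06) in Dio3KO-labelled testes and 622 RPKM (CV 0.04) in wild-type testes and did not pass (adjusted p = 0.271 in the authors' deposited table). H3f3b fell, with 544 RPKM (CV 0.03) in Dio3KO-labelled testes, 667 RPKM (CV 0.05) in wild-type testes and a log2 ratio of −0.29 (adjusted p = 0.0176 in the authors' deposited table). Its other transcript, at 268 RPKM in Dio3KO-labelled and 287 RPKM in wild-type testes, did not pass (adjusted p = 0.265 in the authors' deposited table). H1f0, the linker histone of cells that have stopped dividing, averaged 121 RPKM (CV 0.03) in Dio3KO-labelled testes and 132 RPKM (CV 0.07) in wild-type testes and did not pass (adjusted p = 0.168 in the authors' deposited table).

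Of the 11 variants grouped as replication-independent and tested, 7 fell, none rose and 4 did not pass in the authors' deposited table. Limma with Benjamini-Hochberg adjustment gave the same counts. The authors' table called 15.8% of all genes lower and 13.8% higher, and limma called 23.1% lower and 18.5% higher. The median ratio on the log2 scale was −0.55, or −0.40 when scaled to all symbols. At an unadjusted limma p below 0.05, 8 were lower and none higher, where 28.9% of all genes were lower and 21.8% higher. H2afx, the variant phosphorylated at DNA breaks, averaged 254 RPKM (CV 0.13) in Dio3KO-labelled testes and 439 RPKM (CV 0.05) in wild-type testes, with a log2 ratio of −0.79 (adjusted p = 0.0056 in the authors' deposited table). Cenpa, the H3 variant of centromeres, had a log2 ratio of −0.79 (adjusted p = 0.0072 in the authors' deposited table). H1fx and H2afy2 had ratios of −0.73 and −0.55, at adjusted p-values of 0.0034 and 0.0048 in the authors' deposited table. H2afv had nearly the values of H2afz, and how reads were divided between them is unknown here.

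Among genes that make and process histone mRNA, the ratios lay nearer 0. Of 21 tested, 8 fell, none rose and 13 did not pass in the authors' deposited table, which called 15.8% of all genes lower and 13.8% higher. The median ratio on the log2 scale was −0.15, which the scaling to all symbols brings to −0.0024. The sum used there holds the histones, and its log2 ratio was −0.146, against −0.0644 without the histone genes. The limma test with Benjamini-Hochberg adjustment called 9 lower and 1 higher, where it called 23.1% of all genes lower and 18.5% higher. In it 13 lower and 2 higher had an unadjusted p below 0.05, a rule met by 28.9% of all genes as lower and 21.8% as higher. Slbp averaged 69.7 RPKM (CV 0.04) in Dio3KO-labelled testes and 88.8 RPKM (CV 0.02) in wild-type testes, a log2 ratio of −0.35 (adjusted p = 0.0047 in the authors' deposited table). E2f1, a transcription factor of S phase entry, and Casp8ap2, a component of histone locus bodies, had ratios of −0.66 and −0.41, at adjusted p-values of 0.0084 and 0.0102 in the authors' deposited table. Ccne2, a cyclin that starts S phase, had a ratio of −0.33 (adjusted p = 0.0168 in the authors' deposited table). Npat, the coactivator of histone transcription, averaged 13.3 RPKM in Dio3KO-labelled testes and 14.1 RPKM in wild-type testes and did not pass (adjusted p = 0.305 in the authors' deposited table). Nor did Srrt and Cdk2, at adjusted p-values of 0.164 and 0.113 in the authors' deposited table.

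Histone chaperones, which carry histones to DNA, were mixed. Of 23 tested, 12 fell, 1 (Rbbp7) rose and 10 stayed above the threshold in the authors' deposited table. That table called 15.8% of all genes tested lower and 13.8% higher. The limma test with Benjamini-Hochberg adjustment called 14 lower and 2 higher (Rbbp7 and Daxx). Of all genes it called 23.1% lower and 18.5% higher. The median ratio on the log2 scale was −0.18, or −0.04 when scaled to all symbols. Mcm2, Nasp, Hjurp and Dnajc9 fell by 0.59, 0.37, 0.70 and 0.45 on the log2 scale, at adjusted p-values between 0.0041 and 0.0051 in the authors' deposited table. Rbbp7, a chaperone subunit, averaged 258 RPKM (CV 0.03) in Dio3KO-labelled testes and 225 RPKM (CV 0.02) in wild-type testes (adjusted p = 0.0147 in the authors' deposited table). Rbbp4 and Nap1l4 did not pass, at adjusted p-values of 0.5 and 0.117 in the authors' deposited table.

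Genes of DNA replication and S phase fell with the histones. All 19 tested were lower in Dio3KO-labelled testes in the authors' deposited table, a call made for 15.8% of all genes tested. Their median log2 ratio was −0.57, smaller in size than the −0.92 of the histones. Scaled to all symbols, their median was −0.43, beside −0.76 over the 62 histone genes. Top2a, which untangles DNA, averaged 71.4 RPKM (CV 0.07) in Dio3KO-labelled testes and 119 RPKM (CV 0.04) in wild-type testes, a log2 ratio of −0.73 (adjusted p = 0.0025 in the authors' deposited table). Pcna, the sliding clamp of DNA polymerase, averaged 108 RPKM (CV 0.06) in Dio3KO-labelled testes and 162 RPKM (CV 0.04) in wild-type testes, a log2 ratio of −0.59 (adjusted p = 0.0031 in the authors' deposited table). Mcm6 and Ccna2 had ratios of −0.59 and −0.74 (adjusted p = 0.0039 for each in the authors' deposited table). The difference in size between the histones and these genes was not tested.

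Markers of cell types in the testis moved in both directions beside these changes. By the authors' deposited table, 4 of 8 Sertoli markers fell and 2 rose, 2 of 6 Leydig markers rose, 4 of 5 macrophage markers rose, 2 of 5 endothelial markers rose, and of 4 myoid markers 1 fell and 2 rose. The limma test with Benjamini-Hochberg adjustment called 3 Leydig, 5 macrophage and 4 endothelial markers higher, and gave the same counts for Sertoli and myoid markers. Of all genes tested, the authors' deposited table called 15.8% lower and 13.8% higher, and limma called 23.1% lower and 18.5% higher. Macrophage markers summed to 51.7 RPKM in Dio3KO-labelled testes and 25.3 RPKM in wild-type testes, Leydig markers to 574 RPKM in Dio3KO-labelled testes and 390.3 RPKM in wild-type testes, and endothelial markers to 57.3 RPKM in Dio3KO-labelled testes and 46.8 RPKM in wild-type testes. Myoid markers summed to 452 RPKM in Dio3KO-labelled testes and 485 RPKM in wild-type testes. The part of these markers' cells in the histone result was not tested.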

How the data were processed

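Total RNA of 8 testis samples (4 Dio3KO-labelled, 4 wild type) was sequenced on an Illumina platform, per the labels' protocols. FastQC, Novoalign 2.08 and the mm10 build are named in the submitters' processing notes. For the counting tool, read length, strand, handling of reads with several matches, selection of polyadenylated RNA and the authors' test, nothing is given in the sources used here. The deposited table holds, per the file headers, RPKM means of each group, a CV (a ratio of SD to mean) and an adjusted p-value by the authors. Each of 49139 transcripts stands 3 times in 147417 lines, and repeats were dropped. It holds no columns of single samples, so depth is unknown and no interval of counting error can be given.

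Symbols were used as deposited. The transcript with the highest average of both means stood for a gene, genes were tested where the larger of both means reached 1 RPKM, and genes of a class with both means within 2% and both CVs within 0.02 counted as 1. The call was the authors' adjusted p below 0.05. Log2 ratios are on the log2(mean + 0.5) scale, which understates changes of low genes. A moderated test was rebuilt from means and CVs with limma 3.58.1 in R 4.3.3 over all genes, with Benjamini-Hochberg adjustment, and was tested on simulated data. Sequence work used the GENCODE M21 transcripts and the RefSeq promoter table.

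Members and gene lists were chosen with earlier results of these data known. Named in each class were the 3 most abundant members, up to 3 past the threshold with the smallest p, those with the lowest and highest ratio, and the testis-specific genes Hist1h1t, Hist1h1a, Hist1h2aa and Hist1h2ba. From other lists, up to 4 past the threshold and 2 not past it were named. Others named, such as the genes outside the Hist1 cluster, were chosen after their values were seen. Other thresholds, filters, pseudocounts and scalings were tried as alternatives.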

Additional observations from a re-analysis of the deposited data

How the results depend on the processing

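The count of 51 lower genes was 48 at an adjusted p of 0.01, 52 at 0.1, 52 with limma and Benjamini-Hochberg adjustment, 56 with every gene counted singly and 43 when means within 5% and CVs within 0.05 counted as 1. Limited to members with at least 50% unique windows, a choice made after seeing the data, it was 10. The median log2 ratio was then −0.63, and the class medians were −0.55 over 2 H2A genes, −0.22 over 4 H2B genes and −0.63 over 3 H4 genes. No H3 gene entered, and the 4 H2B genes were Hist1h2ba, at −0.98, and the 3 that did not pass. Why these medians lie nearer 0 than those of all members was not tested. No histone gene was called higher under any alternative run. Scaling to the summed RPKM of all symbols, also added after seeing the data, shifted every ratio up by 0.15 and turned the Hist2h2be log2 ratio to 0.0627 (0.06), where it was −0.08 on the deposited scale. The other 309 ratios of single genes under another pseudocount, centring or scaling, which bring no new test, moved by less than 1 SD (both groups' CVs combined, log2 scale) and kept their direction. With limma, 61 of the 62 calls stayed, and Hist3h2a passed. Leaving out each replicate could not be run because the table holds group means. No paired analysis was possible because the table has no values of single samples. Depth is unknown, and the near copies of each class limit how far single genes can be told apart.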
